A study of Mus musculus with 5 samples.

Results

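The 10 immediate early transcription factors described here are Fos, Fosb, Fosl2, Junb, Egr1, Egr2, Egr3, Npas4, Nr4a1 and Nr4a3. They were picked out by gene name, with no cutoff on their values, from the 15093 genes listed for ribosome-bound RNA of Drd2 neurons of the mouse central amygdala (CeA). Each name occurred once in the table, and all 10 genes were among the 13560 that passed a filter on low values and entered the comparison.

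The RNA came from adult Drd2-TRAP mice, in which a Drd2-Cre transgene switches on an eGFP-tagged ribosomal protein (L10a) at the Rosa26 locus, so that mRNA on the ribosomes of these cells can be pulled down by the tag (translating ribosome affinity purification, TRAP). Both alleles were shared by all 5 libraries, and RNA for each was pooled from the CeA of 3 animals, punched on both sides. There were 3 fear conditioned libraries (replicates 2, 3 and 4) from mice given tones paired with foot shock, and 2 libraries (replicates 6 and 7) from the group that the labels call home cage. The paper's Results have these control animals hear the tone without shock, while its Methods call the same libraries HC, its short form for home cage. The labels place collection 2 h after extinction where the paper's text has it after conditioning. The exact control and session therefore cannot be told apart here. Recombination by Cre is permanent, so the tag marks cells that have expressed the transgene at any time. In bulk RNA of this kind, fewer cells of a type and less RNA per cell cannot be told apart.

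Immediate early genes are transcribed within minutes of synaptic activity from factors already in the cell, without new protein synthesis, and many of the mRNAs decay soon afterward. In neurons, calcium and cAMP signals reach their promoters through CREB, bound at cAMP response elements, and through serum response factor, bound at CArG boxes. The proteins made from them are themselves transcription factors that act on later genes of plasticity. In the amygdala, Fos and Egr1 are widely used as marks of neurons that were active during fear learning and recall.

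Promoters of 8 of the 10 genes were found among RefSeq windows of 250 bases before and 50 after a transcription start (build GRCm38.p6), and Egr1 and Egr3 were not among them. The sequence TGACG, the core of the cAMP response element, was searched on both strands and lay in at least 1 window of 7 of the 8 genes, all but Fosl2, against 23.0% of the 27025 genes with a window. The complete element, TGACGTCA, which contains that core, was in none of the 8 and in 2.03% of genes. The CArG box was found in Egr2 alone of the 8 and in 1.81% of genes, the TATA box (TATAAA) in Fos and Junb and in 15.7%, and the site of the EGR proteins themselves (GCGNGGGCG) in Fosb, Fosl2 and Nr4a1 and in 6.27%. The AP-1 site (TGANTCA), the NR4A site (AAAGGTCA) and the MEF2 site were in none of the 8, against 8.97%, 1.70% and 0.636% of genes. A match of letters is a description, and elements outside these windows were not searched.

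The windows of 4 genes are printed 5′ to 3′ because the results below turn on them: Fos is the gene most used as an activity mark, Egr2 and Nr4a3 are genes whose libraries separate by group in opposite directions, and Npas4 has the widest spread between control libraries. Capitals mark TGACG on either strand, the CArG box and TATAAA. The windows lie at chr12:85473640-85473939 on the plus strand for Fos, chr10:67537619-67537918 on the plus strand for Egr2 (1 of 5 listed start sites), chr19:4989922-4990221 on the minus strand for Npas4 and chr4:48045055-48045354 on the plus strand for Nr4a3.
Fos: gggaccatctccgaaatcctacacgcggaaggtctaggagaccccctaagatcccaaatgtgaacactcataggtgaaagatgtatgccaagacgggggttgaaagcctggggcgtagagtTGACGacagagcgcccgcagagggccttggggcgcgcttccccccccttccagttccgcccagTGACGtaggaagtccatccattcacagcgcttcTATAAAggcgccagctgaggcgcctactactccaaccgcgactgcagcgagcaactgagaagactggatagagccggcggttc
Egr2: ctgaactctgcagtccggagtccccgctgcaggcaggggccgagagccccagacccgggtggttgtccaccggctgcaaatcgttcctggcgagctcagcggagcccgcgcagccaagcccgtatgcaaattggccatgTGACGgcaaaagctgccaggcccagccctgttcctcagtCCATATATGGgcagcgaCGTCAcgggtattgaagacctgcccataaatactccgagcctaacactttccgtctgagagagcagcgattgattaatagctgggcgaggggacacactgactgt
Npas4: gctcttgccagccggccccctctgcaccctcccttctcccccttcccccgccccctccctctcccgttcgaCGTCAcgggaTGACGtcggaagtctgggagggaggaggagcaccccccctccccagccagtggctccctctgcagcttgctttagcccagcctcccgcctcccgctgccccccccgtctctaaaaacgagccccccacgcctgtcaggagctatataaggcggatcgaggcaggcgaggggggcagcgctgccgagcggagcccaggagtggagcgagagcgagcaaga
Nr4a3: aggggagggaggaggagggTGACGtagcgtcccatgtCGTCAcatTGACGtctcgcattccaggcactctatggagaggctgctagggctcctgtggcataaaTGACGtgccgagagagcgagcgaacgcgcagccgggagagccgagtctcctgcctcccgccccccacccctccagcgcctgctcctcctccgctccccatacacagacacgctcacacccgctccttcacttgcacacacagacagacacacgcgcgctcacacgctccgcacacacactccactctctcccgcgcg

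In Fos, TGACG began at positions -129 and -66 relative to the start, and TATAAA at -33. In Junb, whose window is not printed, TATAAA began at the listed start itself (position 1). In Egr2 the CArG box, CCATATATGG, lay from -72 to -63 with TGACG on either side of it. In Npas4 the pair of TGACG cores lay close together on opposite strands, beginning at -179 and -169. In Nr4a3 there were 4 cores, between -231 and -143.

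Before the values of single genes, the libraries have to be described, since they did not vary alike. Reads on genes numbered from 19605318 to 27937520 per library. The coefficient of variation beyond counting noise, estimated by edgeR within each group, was 0.237 in the fear conditioned and 1.25 in the home cage group. Between 159 and 349 genes were listed at 0 in a fear conditioned library, 976 in home cage replicate 6 and 2681 in home cage replicate 7. Drd2 was present in every library but differed by group, with 326, 375 and 555 CPM after fear conditioning, against 128 and 262 CPM in controls. The paper reports no significant change of Drd2 after fear conditioning. Cell markers differed with the groups. Markers of striatal D2 projection neurons (8 genes) summed to 22322 to 24178 CPM after fear conditioning, against 8217 and 13949 CPM in controls. Penk made up most of this sum, with 13564.5 to 16076.2 CPM after fear conditioning, against 6097.9 and 8605.55 CPM in controls. All fear conditioned libraries lay above both controls for 7 of the 8 genes. The paper reports Adora2a and Gpr6, both in this list, as upregulated after fear conditioning. Of 5 markers of central amygdala neurons, Prkcd and Sst had all fear conditioned libraries below both controls. The groups overlapped for the other 3. Ttr, a transcript of choroid plexus, was at 913 and 1320 CPM in the control libraries and at most 22.1 CPM in the others. Of 5 choroid plexus markers tested, Ttr among them, 3 had all fear conditioned libraries below both controls. The groups overlapped for the other 2, Folr1 and Clic6. Xist, the noncoding RNA of X inactivation in females, had 666 and 1774 reads in controls and 0 to 4 reads after fear conditioning. Xist thus separated the groups, so sex cannot be told apart from conditioning for any gene here. The part of these differences in the results below was not tested.

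Values are in counts per 1000000 of an effective library size (CPM), and differences are fear conditioned minus home cage on the scale log2(CPM + 1), with standard errors and Benjamini-Hochberg adjusted p from limma fitted over all 13560 genes. To be called, a gene needed an absolute difference over 0.5 and an adjusted p under 0.05. No gene of the 10 was called, and of all genes 0 were (0%). At an unadjusted p under 0.05, limma gave 0 of the 10 genes and 2280 of all genes. All fear conditioned libraries lay above both home cage libraries for 2 of the 10 genes (Egr2 and Egr3), against 20.2% of all genes tested, and below both for 1 (Nr4a3), against 16.1%. Both counts are near the shares over all genes. The groups overlapped for the other 7. On reads recovered from the values, DESeq2 called none of the 10 genes while it called 7.47% of 15093.

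**Figure D1:**
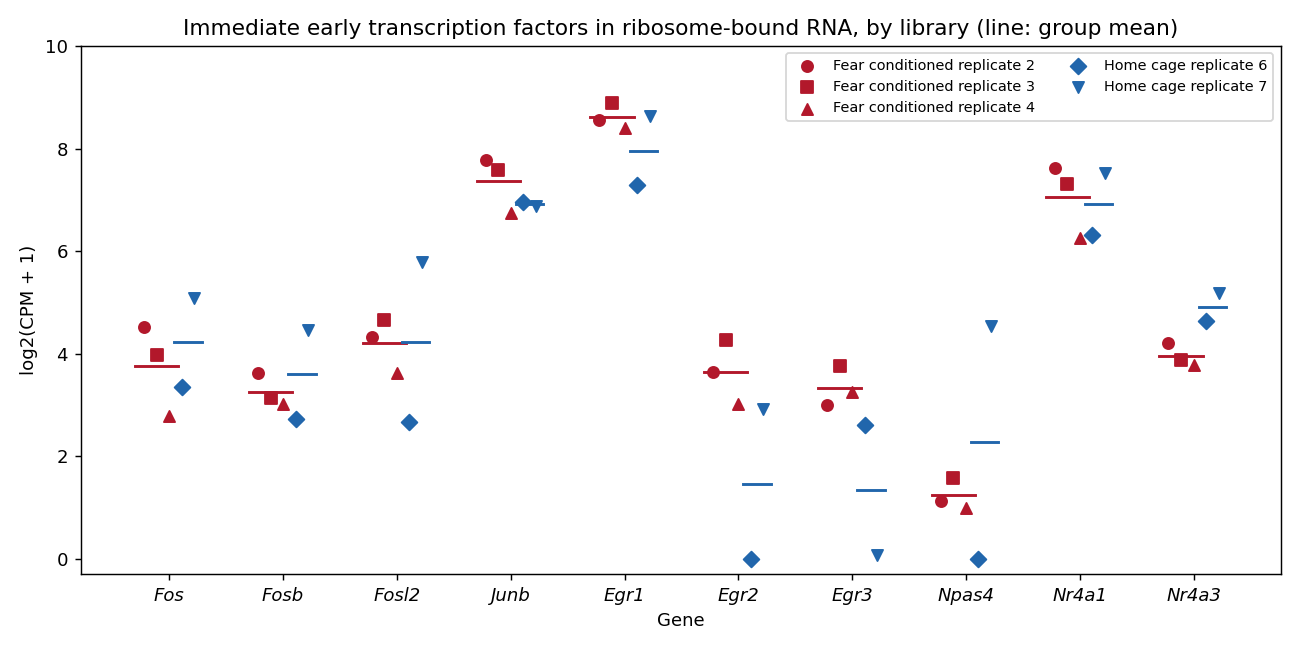
Level of each gene, log2(CPM + 1) on the y axis, in 3 fear conditioned libraries (red) and 2 home cage libraries (blue), with lines at the group means. For Fosb, Fosl2 and Npas4 all 3 fear conditioned libraries sit between the home cage libraries, and the groups separate for Egr2, Egr3 and Nr4a3.

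Fos, Fosb, Fosl2 and Junb encode leucine zipper proteins of the AP-1 complex, in which a Fos protein pairs with a Jun protein. Fos (ENSMUSG00000021250) had 22.0, 14.8 and 5.91 CPM in fear conditioned replicates 2, 3 and 4 and 9.25 and 33.2 CPM in home cage replicates 6 and 7. The highest value was in a control library and the lowest in a fear conditioned library, so the groups overlapped. The difference was -0.46 (standard error 0.77, 95% interval -2.32 to 1.40, limma adjusted p = 0.784). Fosb (ENSMUSG00000003545), whose splice form ΔFosB is known to build up in striatal neurons with repeated stimulation, had 11.4, 7.79 and 7.10 CPM after fear conditioning, with controls at 5.64 and 21.1 CPM. All 3 fear conditioned values lay between the control values, and the difference was -0.34 (standard error 0.68, limma adjusted p = 0.819). The table gives 1 value for the gene and does not separate its splice forms.

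Fosl2 (ENSMUSG00000029135), which encodes Fra-2, had 19.1, 24.2 and 11.4 CPM after fear conditioning, against 5.34 and 54.3 CPM in controls. The control libraries differed 10.2-fold and enclosed all 3 fear conditioned values. The difference of -0.02 (standard error 0.94, 95% interval -2.29 to 2.24) was near 0 in the middle of a wide interval. Junb (ENSMUSG00000052837), a Jun partner of the Fos proteins, was the gene on which the control libraries came closest, with 123 and 117 CPM. Its fear conditioned libraries had 217, 191 and 107 CPM, so that 2 lay above both controls and replicate 4 lay below both. The difference was 0.45 (standard error 0.34, 95% interval -0.38 to 1.28, limma adjusted p = 0.528).

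Egr1, Egr2 and Egr3 encode zinc finger factors that bind GC-rich sites and are held in check by the corepressors Nab1 and Nab2. Egr1 (ENSMUSG00000038418) had 374, 474 and 335 CPM after fear conditioning, against 155 and 395 CPM in controls. Home cage replicate 6 stood below all other libraries, and replicate 7 stood among the fear conditioned ones. The difference was 0.65 (standard error 0.42, 95% interval -0.35 to 1.66, limma adjusted p = 0.457).

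Egr2 (ENSMUSG00000037868) had 11.6, 18.2 and 7.15 CPM after fear conditioning, against 0 and 6.54 CPM in controls. The groups did not overlap, but fear conditioned replicate 4 (144 reads, Poisson 95% interval 6.03 to 8.42 CPM) and home cage replicate 7 (124 reads, 5.44 to 7.80 CPM) were within counting error of each other. The 0 reads in home cage replicate 6 have a Poisson 95% upper limit of 0.123 CPM, and a floor of 3 reads. The group means were 12.3 ± 5.58 (SD, n = 3) and 3.27 ± 4.62 CPM (SD, n = 2). The difference was 2.19 (standard error 0.97, 95% interval -0.15 to 4.53, limma adjusted p = 0.321), and it was 0.73 without replicate 6 and 3.65 without replicate 7. In RefSeq the noncoding gene Gm32255 overlaps Egr2, and strand use in the counting is not given in the sources used here.

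Egr3 (ENSMUSG00000033730), the other gene with all fear conditioned libraries above both controls, had 6.97, 12.6 and 8.54 CPM after fear conditioning, against 5.11 and 0.0527 CPM in controls. Here the low library was home cage replicate 7, with 1 read (Poisson 95% interval 0.00134 to 0.294 CPM), while replicate 6 had 153 reads. The group means were 9.36 ± 2.89 (SD, n = 3) and 2.58 ± 3.58 CPM (SD, n = 2). The difference was 1.99 (standard error 0.86, 95% interval -0.09 to 4.08, limma adjusted p = 0.313), and it was 0.73 without replicate 7 and 3.26 without replicate 6. The 2 genes thus owe their low control mean to different libraries. Of 10445 genes with a mean of at least 5 CPM after fear conditioning, 0.766% had 3 reads or fewer in home cage replicate 6, Egr2 among them, and 6.75% in replicate 7, Egr3 among them. Both genes reached p = 0.1 in a two-sided exact permutation test, the smallest that 3 libraries against 2 allow.

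Npas4 (ENSMUSG00000045903) encodes a factor induced by calcium entry that pairs with Arnt2 and shapes inhibitory synapses. It had 1.19, 2.00 and 0.993 CPM after fear conditioning, from 20 to 48 reads. In controls it had 0 reads in replicate 6 and 423 reads, 22.3 CPM, in replicate 7. No other gene of the 10 differed as much between the control libraries (4.54 on the log2 scale), and its 3 fear conditioned values lay between them. The difference was -1.04 (standard error 1.29, 95% interval -4.15 to 2.08, limma adjusted p = 0.703). It was -3.31 without home cage replicate 6 and 1.24 without replicate 7, so each control library alone gives the opposite direction.

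Nr4a1 and Nr4a3 encode orphan nuclear receptors, and Nr4a1 can act as a partner of retinoid X receptors. Nr4a1 (ENSMUSG00000023034) had 197, 157 and 75.6 CPM after fear conditioning, against 79.0 and 183 CPM in controls. Both groups spanned nearly the same range, and the difference was 0.14 (standard error 0.52, 95% interval -1.12 to 1.41, limma adjusted p = 0.906). Nr4a3 (ENSMUSG00000028341) had 17.5, 13.6 and 12.8 CPM after fear conditioning, against 23.7 and 35.1 CPM in controls. It was the only gene of the 10 with all fear conditioned libraries below both controls. The group means were 14.7 ± 2.53 (SD, n = 3) and 29.4 ± 8.04 CPM (SD, n = 2). The difference was -0.95 (standard error 0.42, 95% interval -1.96 to 0.07, limma adjusted p = 0.321), and it was -1.22 without home cage replicate 6 and -0.67 without replicate 7. Nr4a3 was covered by 258 to 711 reads per library and was at or near 0 in none, unlike Egr2 and Egr3. The exact permutation test gave p = 0.1, and it gave between 0.4 and 1.0 for the 7 genes whose groups overlapped.

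**Figure D2:**
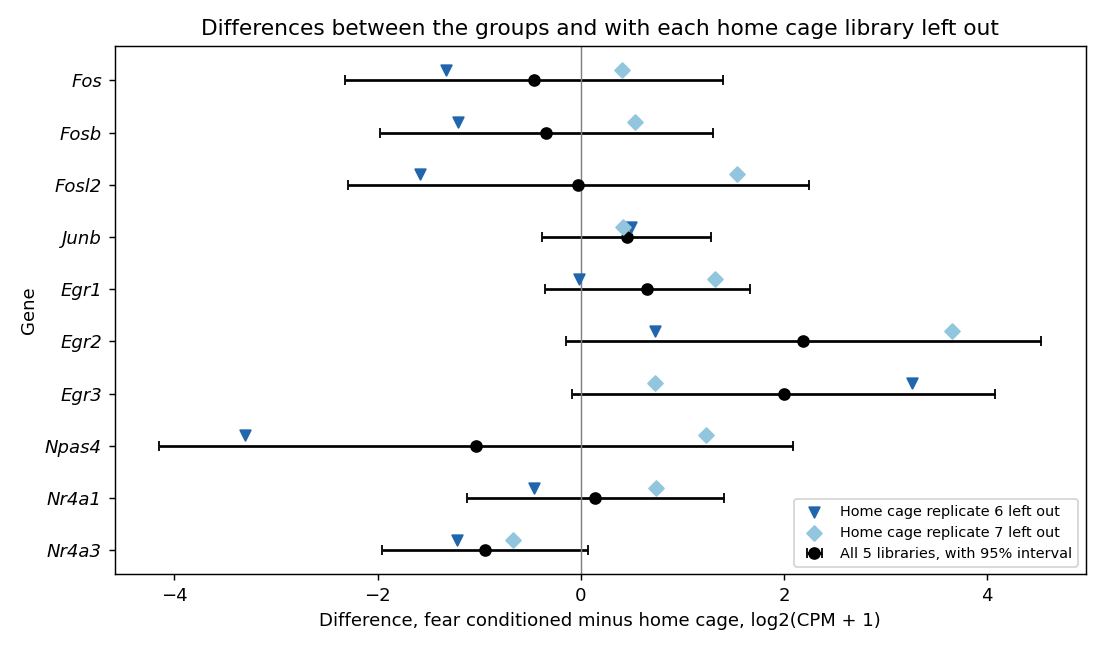
Difference between fear conditioned and home cage libraries on the log2(CPM + 1) scale (x axis) for each gene (y axis). Black points with bars are the difference over all 5 libraries with its 95% interval, and blue marks are the difference with 1 home cage library left out. Every interval includes 0, and the marks lie on opposite sides of 0 for Fos, Fosb, Fosl2, Egr1, Npas4 and Nr4a1.

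Over the 10 genes the differences had a median of 0.06, with 5 above 0 and 5 below, and over all genes tested the median was 0.08 with 54.0% above 0. The count of genes above 0 was 9 without home cage replicate 7 and 3 without home cage replicate 6. Without replicate 7 the largest differences in either direction were those of Egr2 (3.65), Fosl2 (1.54), Egr1 (1.32) and Npas4 (1.24). Without replicate 6 they were those of Npas4 (-3.31), Egr3 (3.26), Fosl2 (-1.59) and Fos (-1.33). With 1 control library the fit takes its spread from the fear conditioned libraries alone. Its calls for the 10 genes are therefore not given, and its count over all genes is not read as a result. Fos, Fosb, Fosl2, Egr1, Npas4 and Nr4a1 changed direction with the choice of control library. Junb, Egr2, Egr3 and Nr4a3 kept their direction under both. Among the fear conditioned libraries, leaving out replicate 4 turned Fos (0.026) and Fosl2 (0.26) above 0, and leaving out replicate 2 turned Nr4a1 below 0 (-0.14).

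Within each group, single libraries were also compared. Home cage replicate 7 was above replicate 6 for 8 of the 10 genes, all but Junb and Egr3, against 43.3% of all genes tested. The median gap was 1.54 on the log2 scale for the 10 genes and -0.20 for all genes. Among genes with a mean of at least 10 CPM, replicate 7 exceeded replicate 6 by over 1 on the log2 scale for 5 of 7 (Fos, Fosb, Fosl2, Egr1 and Nr4a1), against 1760 of 9276 genes. Markers of striatal D2 projection neurons were also higher in replicate 7 (8 of 8 genes), those of pallial glutamatergic neurons in 3 of 7, of oligodendrocytes in 3 of 6 and of microglia in 1 of 6.

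Among the fear conditioned libraries, replicate 4 had the lowest value for 9 of the 10 genes, all but Egr3, against 30.0% of all genes. Its gap to the mean of replicates 2 and 3 was largest for Fos (-1.46) and Nr4a1 (-1.21) and had a median of -0.61, against -0.01 over all genes. The values of replicates 2 and 3 shared the highest place, with 5 genes each. Pallial glutamatergic markers were lowest in replicate 4 as well (7 of 7 genes, with summed levels of 201, 188 and 48.2 CPM in replicates 2, 3 and 4), whereas markers of striatal D2 projection neurons were lowest there in 0 of 8 and those of microglia in 0 of 6. Which cells carried the immediate early transcripts was not tested. These comparisons of single libraries were chosen after their values were seen and have no test, and the labels name no difference between libraries of a group.

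**Figure D3:**
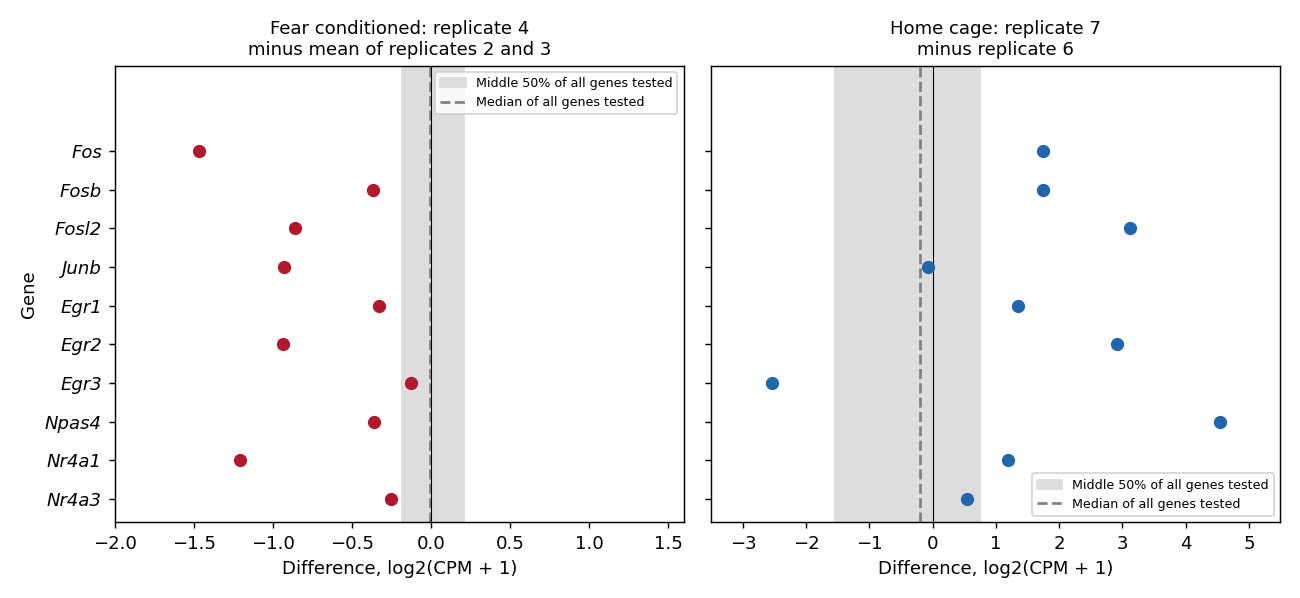
Gap between libraries of the same group on the log2(CPM + 1) scale (x axes) for each gene (y axis), with the middle 50% of all genes tested in grey and their median dashed. In the fear conditioned group (left) all 10 points lie below 0, and in the home cage group (right) 8 of 10 lie above 0, with Egr3 and Junb below.

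Levels were compared between genes after division by the deposited gene length. Egr1 (median of 5 libraries 74.5 CPM per kb), Junb (68.3) and Nr4a1 (63.6) were the highest. They did not differ beyond their spread, with ranges of 30.9 to 94.4, 59.0 to 120.2 and 30.6 to 79.9 CPM per kb. A gap followed, since the lowest value of these 3 genes was above the highest value of any other, 14.1 CPM per kb for Fos in home cage replicate 7. Fos (median 6.30 CPM per kb), Egr3 (4.31), Fosl2 (3.26), Nr4a3 (2.71), Egr2 (2.30) and Fosb (2.08) overlapped in range with their neighbours in this order. Npas4 was the lowest by median (0.363 CPM per kb) but ranged from 0 to 6.82. Egr1 was among the most abundant transcripts of each library, above between 91.0% and 97.9% of listed genes per library, not adjusted for length.

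Profiles over the 5 libraries were also compared by Euclidean distance between log2(CPM + 1) values centered on each gene's mean. Within the 10 genes, Fos and Nr4a1 were the closest pair (0.81), followed by Fos and Fosb (0.91). Among all genes tested, Egr4, another zinc finger factor of the EGR family, was the second nearest to Nr4a1 (0.49, after Cbx8 at 0.49). The gene nearest to Junb was Dusp14 (0.26), to Egr1 Stard4 (0.22), to Egr2 Osbpl11 (0.68), to Egr3 6030458C11Rik (0.17), to Npas4 Etv4 (0.36), to Nr4a3 Fam82b (0.16), to Fosl2 C330027C09Rik (0.34) and to Fosb Ndufb2 (0.08). For Fos the nearest was 2010003O02Rik (0.65), and the neuropeptide gene Nts followed (0.69). With 5 libraries many genes lie close by, and the distances are a description.

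Other immediate early transcription factors and immediate early regulators were read from a list of 17 genes, of which 16 were found and 14 tested, none past the cutoffs. Their median difference was 0.56, 12 were above 0 and 2 below (54.0% of all genes tested were above 0), and 5 had all fear conditioned libraries above both controls (20.2% of all genes). The largest differences were those of Crem (3.19, limma adjusted p = 0.237), which includes a cAMP-inducible repressor of CREB targets, Nfil3 (2.53) and Nr4a2 (2.18). Nr4a2, the remaining NR4A receptor, had 11.7, 40.9 and 4.97 CPM after fear conditioning, against 1.67 and 2.95 CPM in controls, so the groups were apart but the fear conditioned libraries differed widely among themselves. Crem had 45.1, 41.4 and 33.6 CPM after fear conditioning, against 15.4 and 0.211 CPM in controls, a pattern like that of Egr3 with home cage replicate 7 near 0. The smallest were those of Klf4 (-1.47), Ier2 (-0.04) and Btg2 (0.06). As in the 10 genes, replicate 4 was the lowest fear conditioned library for most of them (10 of 14, against 30.0% of all genes). The gap between controls did not recur, since home cage replicate 7 was above replicate 6 for 7 of 14, against 43.3% of all genes.

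Regulators that act on the promoters of immediate early genes were 14 genes, all tested. Their differences were above 0 for 6 and below 0 for 8 with a median of -0.01, and none passed. Serum response factor (Srf) had a difference of 0.23 (standard error 0.53) and Creb1 of 0.50 (standard error 0.38). Mrtfa, an actin-sensing coactivator of Srf listed as Mkl1, was highest at 1.55 (standard error 0.34, limma adjusted p = 0.197), with 57.9, 53.1 and 53.2 CPM after fear conditioning, against 23.0 and 14.0 CPM in controls. It was followed by Atf1 (0.87) and Creb1, and the lowest were Elk3 (-0.72), Mrtfb (-0.64, listed as Mkl2) and Mef2c (-0.60).

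Partners and corepressors of the 10 factors were 9 genes, 7 above 0 and 2 below, with a median of 1.41 and none past the cutoffs. Jun, the partner of Fos proteins, had 21.1, 29.4 and 16.04 CPM after fear conditioning, against 11.7 and 2.43 CPM in controls, a difference of 1.77 (standard error 0.69, limma adjusted p = 0.283). Jund had a difference of 0.64 (standard error 0.21) with no overlap of the groups. Nab2 differed by 1.41 (standard error 0.38) with 59.9, 39.9 and 39.7 CPM against 19.9 and 13.7 CPM, and Nab1 by 1.57 (standard error 1.02) with overlap. Arnt2, the partner of Npas4, had all fear conditioned libraries below both controls, with 97.8, 90.5 and 89.4 CPM against 227 and 162 CPM (difference -1.04, standard error 0.24, limma adjusted p = 0.197). The receptor gene Rxrg, one of the retinoid X receptors that can pair with NR4A proteins, differed by 1.53 and Rxra by -0.61.

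Activity-regulated effector genes had a median difference of 0.77 over 20 genes. Of these 12 were above 0 and 8 below, near the 54.0% above 0 of all genes, and 7 had all fear conditioned libraries above both controls, against 20.2% of all genes. None passed. The highest were Nedd9 (2.77), Dusp5 (2.09) and Dusp6 (1.81), the last being a phosphatase of ERK with 39.6, 71.8 and 40.7 CPM after fear conditioning, against 16.1 and 10.9 CPM in controls. The lowest were Bdnf (-1.49), Gadd45b (-0.39) and Gadd45g (-0.36). Bdnf, a neurotrophin that neurons of the pallium make and striatal neurons largely do not, had 11.9, 8.83 and 1.99 CPM after fear conditioning, against 12.9 and 28.7 CPM in controls, the only gene of this list with all fear conditioned libraries below both controls. Arc had 114, 164 and 56.4 CPM after fear conditioning, against 36.1 and 96.2 CPM in controls, again with replicate 4 lowest in its group and replicate 6 below replicate 7.

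Heat shock genes, which encode chaperones induced by stress, were 5 genes with a median of 0.43 and none past the cutoffs: Dnajb1 (1.55), Hspa1b (0.61), Hsph1 (0.43), Hspb1 (0.34) and Hspa1a (-0.05). Markers of other cells that can express immediate early genes had differences mostly below 0. The summed level of 6 endothelial and mural genes was 44.2, 14.8 and 36.7 CPM against 83.8 and 205 CPM, with 5 of 6 differences below 0. Ly6c1 alone was at 150 CPM in home cage replicate 7, against 8.98 CPM in replicate 6. Cldn5 went the other way (2.03), with all fear conditioned libraries above both controls. The summed level of 6 microglial genes was 86.6, 50.4 and 91.6 CPM against 101.8 and 83.0 CPM, with 3 of 6 below 0. Astrocyte genes summed to 226 to 279 CPM against 601 and 473 CPM (4 of 6 below 0), and oligodendrocyte genes to 1185 to 2508 CPM against 2618 and 4936 CPM (6 of 6 below 0). Pallial glutamatergic genes summed to 48.2 to 201 CPM against 358 and 277 CPM (5 of 7 below 0). Among pallial markers 1 gene was listed at 0 in a library. No defining marker of endothelial cells, microglia, astrocytes or oligodendrocytes was at 0 in any library. Cldn5 (0.0527 CPM) and Gjb6 (0.105 CPM) in home cage replicate 7 were nonetheless below the floor of 3 reads. Pecam1 in fear conditioned replicate 3 (0.125 CPM) was at that floor. The part of these cells in the levels of the 10 genes was not tested.

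**Figure D4:**
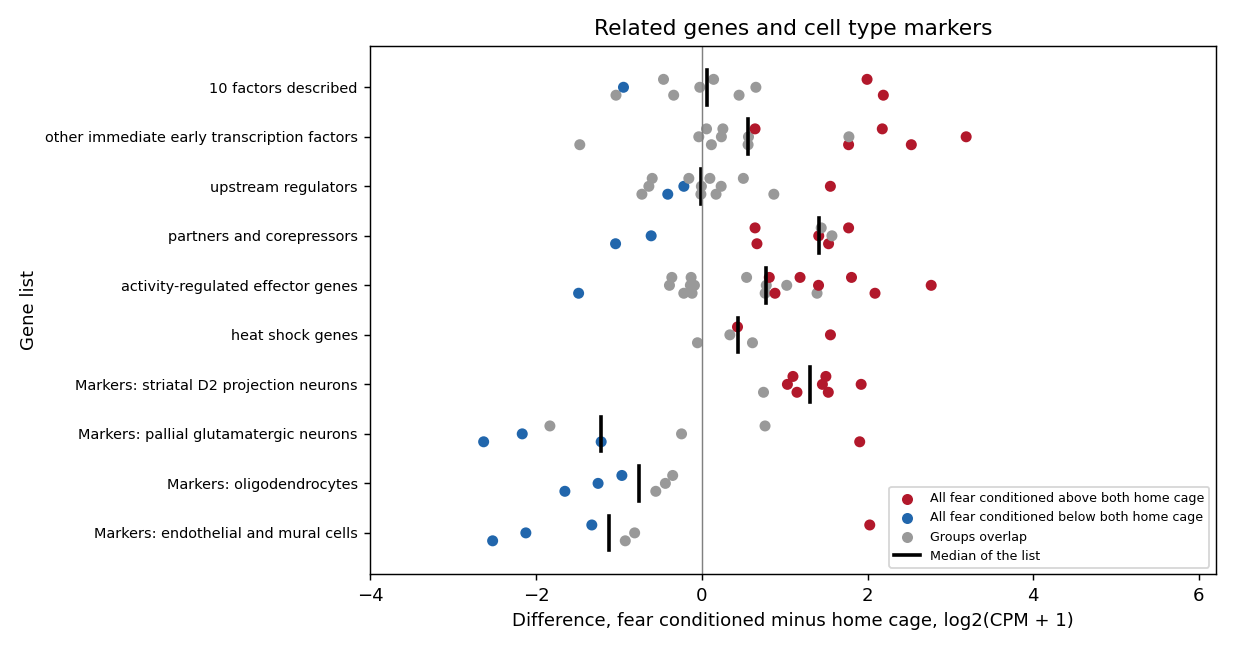
Difference between fear conditioned and home cage libraries, log2(CPM + 1) on the x axis, for the tested genes of 6 gene lists and 4 marker lists (y axis). Each point is a gene, red or blue where the groups do not overlap, and black bars are list medians: 0.06 for the 10 factors, 0.56 for the other immediate early factors and 1.30 for striatal D2 markers.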

How the data were processed

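TRAP RNA of 5 libraries (3 fear conditioned, 2 home cage by their labels) was made into cDNA with the SMARTer kit, barcoded with NexteraXT, sequenced on a HiSeq 1000 and analysed by the authors with Tuxedo DESeq software. The submitters' processing notes name DESeq and build mm8. The aligner and annotation are not given in the sources used here. The deposited values are a normalized signal, made by the authors per gene, scaled like counts per 1000000 reads (CPM) but to an effective depth. All values (100%) were whole multiples of the value of 1 read, within 0.01, so reads could be recovered. The deposited gene lengths were used as given.

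Groups were compared with limma 3.58.1 (eBayes with trend) on log2(CPM + 1) for genes with a mean of at least 1 CPM, and single genes also with an exact permutation test over the 10 arrangements of libraries. This scale understates changes of low genes. A call required an absolute log2 difference over 0.5 with Benjamini-Hochberg adjusted p under 0.05. The fits were also run on simulated data with the same spread in both groups. The home cage libraries here varied far more than the fear conditioned ones, so that run cannot show how the fits behave on these data. Where nothing says that pools were separate cohorts, p-values measure only the spread between these libraries. Reads were amplified and are not independent molecules, so that intervals and floors of 3 reads hold for counting error alone. No pair of libraries in a group was a duplicate (chi-square per degree of freedom at least 36.0).

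Alternatives were a pseudocount of 0.1, no filter, removal of genes under 1 CPM in any library, quantile normalization, limma array weights, each library left out, and edgeR 4.0.16, DESeq2 1.42.0 and limma voom on recovered reads. The names of the 10 genes and the lists were chosen with earlier results of these data known, although no value entered the rule that picked the 10. Named from each list are the 3 highest and 3 lowest differences, and for each of the 10 genes the nearest profiles, besides genes singled out after their values were seen. List genes were matched by name, identifier or RefSeq synonym (GRCm38.p6). Fosl1 and Six3 were not matched. Software was Python 3.11.15 (scipy 1.17.1, pandas 2.3.3, numpy 2.4.6; figures by matplotlib 3.10.9) and R 4.3.3.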

Additional observations from a re-analysis of the deposited data

How the results depend on the processing

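No paired analysis was possible because the groups share no replicate numbers. With 1 library left out, the number of genes past both cutoffs in the whole table ranged from 0 to 8025, the number of the 10 factors with a difference above 0 from 3 to 9 and their median difference from -0.83 to 0.73. The highest counts past both cutoffs came from the fits with 1 home cage library. Those fits take their spread from the fear conditioned libraries alone, so these counts cannot show how many genes differ. The single call without fear conditioned replicate 3 was Ttr. The differences then ranged from -1.33 to 0.41 for Fos, -1.21 to 0.53 for Fosb, -1.59 to 1.54 for Fosl2, 0.25 to 0.76 for Junb, -0.018 to 1.32 for Egr1, 0.73 to 3.65 for Egr2, 0.73 to 3.26 for Egr3, -3.31 to 1.24 for Npas4, -0.46 to 0.74 for Nr4a1 and -1.22 to -0.67 for Nr4a3. The home cage libraries gave both ends of these ranges except for Junb. DESeq2 on recovered reads passed 1128 genes and none of the 10, where limma, edgeR's quasi-likelihood test and voom passed 0 (2280, 2404 and 2543 genes at an unadjusted p under 0.05).

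The median difference of the 10 factors turned below 0 with DESeq2 (-0.28), edgeR (-0.24) and array weights (-0.23), and when genes under 1 CPM in any library were removed (-0.024), which left 7 of them, 3 above 0. The median of all genes was itself 0.08 in limma, -0.04 in edgeR, -0.11 in DESeq2 and 0.25 in voom. Fosl2 turned above 0 with a pseudocount of 0.1 (0.022), quantile normalization (0.30) and voom (0.45), Npas4 with voom (1.39), and Nr4a1 fell below 0 with array weights (-0.21). Of 127 values of single factors under the alternatives, 14 changed direction, in 6 of the 10 genes, and the cause was not tested. Npas4, Egr2 and Egr3 had 0 or 1 read in a home cage library, and replicate 6, with 0 reads of Egr2 and Npas4, was the deepest of all (27937520 reads).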
